A study of Mus musculus with 102 samples.

Results

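The arcuate hypothalamic nucleus (Arc) was compared with the nuclei that lie above it in the tuberal hypothalamus, the dorsomedial (DM) and the ventromedial (VMH) hypothalamic nucleus. The comparison used 6 arrays of the 102 in the series, chosen by their titles, 2 of Arc, 2 of DM and 2 of VMH, and all 45037 probe sets that are not controls of the array. Expression was measured on Affymetrix Mouse Genome 430 2.0 arrays as log2 values of RMA, a method that turns the brightness of a gene's probes into 1 value on a log2 scale, so that a difference of 1 is a doubling. The mice were male Balb/c of 7 to 8 weeks, a wild-type inbred strain, kept in cycles of 12 h light and 12 h dark, and no group was treated. The labels leave unstated whether a given region was sampled in that cycle or in constant darkness. Each array held the RNA of 1 region, punched on both sides from frozen brain slices and pooled over many mice and over 6 time points 4 h apart, so that a daily rhythm is averaged out. The replicate arrays came from separate rounds of sampling, and their spread is one between pools, not between mice.

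The arcuate nucleus sits at the floor of the third ventricle beside the median eminence, where the blood-brain barrier is leaky, and its neurons read leptin, ghrelin and other signals from the blood. Its best known neurons are those that make proopiomelanocortin, whose product alpha-MSH restrains feeding, and those that make neuropeptide Y, which promotes feeding, while others make growth hormone-releasing hormone or dopamine and act on the pituitary gland through the median eminence. The ventromedial nucleus is mostly glutamatergic and is known for its steroidogenic factor 1 neurons, and the dorsomedial nucleus borders the lateral hypothalamus with its melanin-concentrating hormone and orexin neurons.

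The labels were first set against genes known to mark these nuclei. Among these genes, Pomc, Ghrh, Crabp1, Qrfpr, Npvf and Hcrt were also chosen by the study as markers on these same arrays. Their ranks are thus no independent check of the labels. Among 48 regions of brain and spinal cord, Arc had the highest mean of Pomc, Ghrh, Tbx3, Esr1, Crabp1 and Cartpt, and the second highest of Npy after the median eminence. VMH had the highest mean of Fezf1 and Qrfpr and the second highest of Nr5a1, the gene of steroidogenic factor 1, after the dorsal subparaventricular zone. DM had the highest mean of Npvf. It also had the highest means of Pmch (13.97) and Hcrt (11.10), whose neurons are known from the lateral hypothalamus beside it. The region labelled as the lateral hypothalamus itself gave 7.68 for Pmch and 7.54 for Hcrt, near the medians of 48 regions (7.18 and 7.40), whereas Pmch was high in the paraventricular nucleus (13.40) and the dorsal subparaventricular zone (13.23). The arrays of DM and VMH thus both held genes known from outside these nuclei, and so did those of Arc. The Arc means of Avp (13.07) and Oxt (13.04) were the 3rd and 4th highest of 48 regions. Neurons of both are known from the supraoptic and paraventricular nuclei. The VMH mean of Pmch was the 4th highest of 48 regions (12.76), and those of Pomc (11.18) and Ghrh (8.28) were the 3rd and 2nd highest. Fewer cells of a type and less RNA per cell cannot be told apart in such tissue.

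The stretches of 250 bases before the start of 4 genes on which the comparison turns are given here from RefSeq (GRCm38.p6), 5′ to 3′ on the gene's strand. Pomc and Pmch are the peptide genes that differed most in either direction among those with a named probe set, Lrat is the named gene that stood furthest above, and Dio2 led the list of retinoid and thyroid hormone genes. Capitals mark matches of TATAAA, the core of the TATA box, and of TGACGTCA, the cyclic AMP response element, on either strand. The Pomc window is chr12:3954695-3954944 (plus strand), that of Lrat chr3:82903975-82904224 (minus strand), that of Dio2 chr12:90739039-90739288 (minus strand) and that of Pmch chr10:88090822-88091071 (plus strand).
Pomc: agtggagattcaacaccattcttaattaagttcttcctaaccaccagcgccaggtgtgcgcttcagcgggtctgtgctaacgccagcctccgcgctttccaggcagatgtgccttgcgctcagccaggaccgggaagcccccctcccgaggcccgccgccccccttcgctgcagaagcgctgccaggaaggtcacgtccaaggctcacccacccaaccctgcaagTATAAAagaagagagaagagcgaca
Lrat: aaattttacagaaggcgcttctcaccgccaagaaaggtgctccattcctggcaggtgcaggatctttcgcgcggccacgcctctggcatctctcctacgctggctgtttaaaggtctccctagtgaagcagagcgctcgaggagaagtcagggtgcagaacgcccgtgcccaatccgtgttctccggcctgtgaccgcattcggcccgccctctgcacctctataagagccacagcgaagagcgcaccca
Dio2: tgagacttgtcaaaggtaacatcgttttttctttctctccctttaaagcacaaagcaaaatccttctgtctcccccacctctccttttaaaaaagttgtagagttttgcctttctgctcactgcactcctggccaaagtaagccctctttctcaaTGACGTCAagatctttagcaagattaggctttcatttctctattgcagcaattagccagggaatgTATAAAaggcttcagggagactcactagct
Pmch: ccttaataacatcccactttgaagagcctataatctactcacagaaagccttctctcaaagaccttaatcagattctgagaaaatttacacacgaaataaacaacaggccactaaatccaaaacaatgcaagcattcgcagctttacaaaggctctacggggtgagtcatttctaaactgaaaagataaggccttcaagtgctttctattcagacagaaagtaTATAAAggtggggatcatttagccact
TATAAA began 25 bases before the start of Pomc, 30 before that of Dio2 and 27 before that of Pmch, and the Lrat window held none. On either strand it was in 12.4% of the 32851 windows of this length. Of the 20 genes higher in Arc described below, 17 had a window and 5 of these held TATAAA in the first one listed, while of the 20 lower genes 16 had a window and 3 held it. TGACGTCA was found in the Dio2 window 95 bases before the start and in 1.55% of all windows. The motifs CACGTG (an E-box) and TGACCTTG (an element bound by steroidogenic factor 1) were searched too and were not in these 4 windows. They were in 6.02% and 1.33% of all windows. These are matches of letters, and no binding was measured.

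Arc differed from its neighbours in about as many probe sets upwards as downwards. Against the mean of DM and VMH, 4698 probe sets were higher in Arc (10.4% of 45037) and 4280 were lower (9.50%), by limma's moderated test with Benjamini-Hochberg adjusted p under 0.05. Of these, 494 were higher by at least 1 log2 unit (1.10%) and 356 lower by as much (0.790%). Both Arc arrays lay above all 4 arrays of DM and VMH in 13.2% of probe sets and below them in 12.0%. Arc minus DM alone gave 4945 higher (11.0%) and 5682 lower (12.6%), and Arc minus VMH alone 5067 higher (11.3%) and 3650 lower (8.10%). These comparisons share the Arc arrays and so are not independent. With 1 probe set per gene, 13.3% of 18193 genes were higher in Arc than the mean of DM and VMH and 10.9% lower, and the median difference was 0.00. Where DM and VMH were taken as 1 group of 4 arrays, so that their difference counted as spread, 1121 probe sets were higher and 647 lower. Without the second Arc array 2958 were higher, and without the first 2701 were lower.

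**Figure D1:**
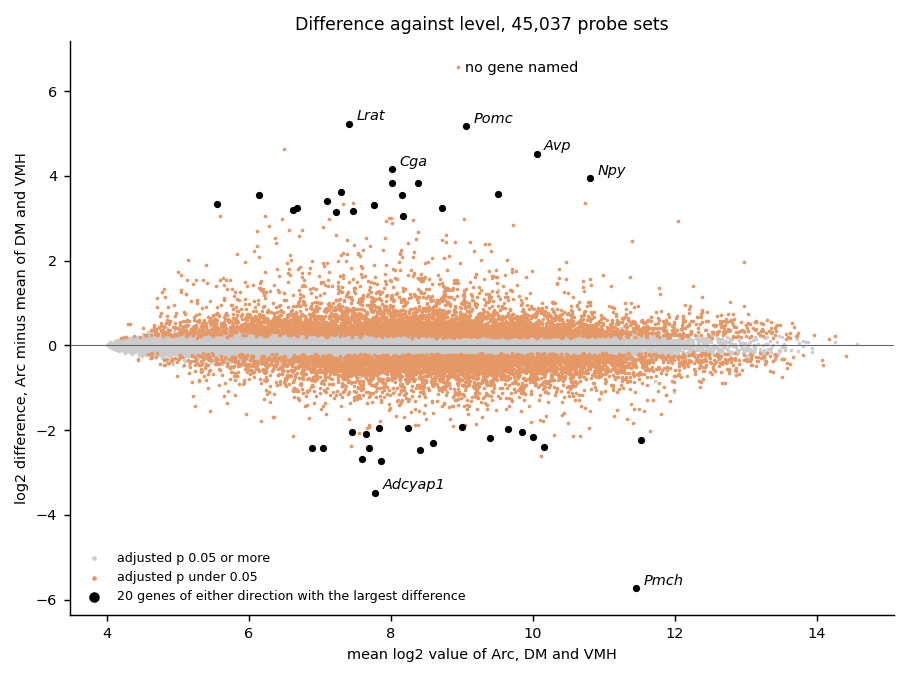
The log2 difference, Arc minus the mean of DM and VMH (y axis), is plotted against the mean log2 value of the 3 nuclei (x axis) for 45037 probe sets, with those of adjusted p under 0.05 in orange and the 20 genes of largest difference in either direction in black. Pmch lies furthest below 0 at -5.74, and the highest point, at 6.58, is a probe set for which the annotation used names no gene.

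The genes that stood highest in Arc were a mixture of peptides, enzymes of retinoid and thyroid hormone handling, pituitary genes and genes of connective tissue. The 20 largest differences above DM and VMH ran from 3.05 to 5.23, and each passed the test against DM and against VMH alone. That both Arc arrays lay above the other 4 was a condition for entering these 20. All 20 genes also had a higher mean in the median eminence than in DM and VMH, and 17 of them a higher one than in Arc. Whether tissue of the median eminence was within the Arc punch was not tested.

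Lrat, lecithin retinol acyltransferase, which stores retinol as its ester, gave 10.65 and 11.16 in the Arc arrays, 5.42 and 5.58 in DM and 5.90 and 5.80 in VMH. The Arc arrays were thus 37.6-fold above the mean of the others, a difference of 5.23 ± 0.11 (SE; adjusted p = 4.89e-42, limma). This SE rests mostly on the spread within all 48 regions, while the SD of the 2 Arc arrays was 0.37. The median eminence was higher still (11.91), and in no other of the 48 regions did the mean of Lrat exceed 5.98.

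Pomc, the precursor of alpha-MSH, beta-endorphin and ACTH, gave 12.23 and 12.80 in Arc, 5.72 and 5.60 in DM and 9.26 and 8.78 in VMH by the probe set that differed most. The arrays fell into 3 levels with VMH between, and Arc was 5.18 ± 0.20 above the mean of the others (36.2-fold; adjusted p = 2.58e-28, limma). A second probe set of Pomc gave the same order at higher levels, with 12.78 and 13.17 in Arc, 8.06 and 8.02 in DM and 11.37 and 10.99 in VMH. Its difference of 3.36 ± 0.15 was made of 4.93 against DM and 1.80 against VMH, and it lost the call when DM and VMH were taken as 1 group.

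Cga, the alpha subunit shared by thyrotropin and the gonadotropins, gave 10.79 in both Arc arrays, 6.30 and 6.67 in DM and 6.78 and 6.77 in VMH, a difference of 4.16 ± 0.11 (adjusted p = 1.76e-36, limma). Dio2, the deiodinase that makes active thyroid hormone, gave 10.87 and 11.02 in Arc, 7.00 and 7.04 in DM and 7.44 and 6.96 in VMH, a difference of 3.84 ± 0.13 (adjusted p = 2.49e-31). In both genes DM and VMH were close together and far from Arc, and the median eminence was higher still, at 12.62 and 12.05. Gpr50, an orphan receptor related to the melatonin receptors, instead fell into 3 levels, 10.44 and 10.60 in Arc, 8.23 and 8.08 in DM and 5.73 and 5.86 in VMH.

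The other genes among the 20 were Avp and Npy, described with the peptides, Crabp1 and Aldh1a1, described with retinoid genes, and Islr, Col23a1, Dcn, Fmod, Ogn, Ces1d, Vim, Efemp1, Fzd5, Slc6a20a and H2-Ea. Dcn (decorin), Fmod (fibromodulin), Ogn (osteoglycin), Col23a1 (a collagen) and Efemp1 (fibulin-3) code for proteins of the extracellular matrix, with differences of 3.58, 3.56, 3.42, 3.62 and 3.26. Each is the value of the gene's probe set that differed most. The other probe sets of Fmod gave 1.25 to 1.82 and the other of Ogn 2.18, while of 2 Dcn probe sets 1 was called. Vim, the intermediate filament vimentin, gave 9.86 and 10.07 in Arc, 7.39 and 6.24 in DM and 6.19 and 6.80 in VMH. H2-Ea, an MHC class II chain, was higher by 3.14 on a probe set whose name marks probes shared between transcripts. Fzd5, a Wnt receptor, was higher by 3.24, and Islr, Ces1d, a carboxylesterase, and Slc6a20a, a proline transporter, by 3.83, 3.34 and 3.18.

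One probe set without a gene name in the annotation used differed more than any named one. It gave 13.24 and 13.41 in Arc, 5.40 and 5.42 in DM and 8.55 and 7.61 in VMH. The order of the 3 nuclei was that of Pomc, and in the median eminence, the highest region, the mean was 13.55. Its differences were 7.91 ± 0.47 against DM and 5.24 ± 0.47 against VMH (adjusted p = 4.10e-20 and 3.53e-13, limma).

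**Figure D2:**
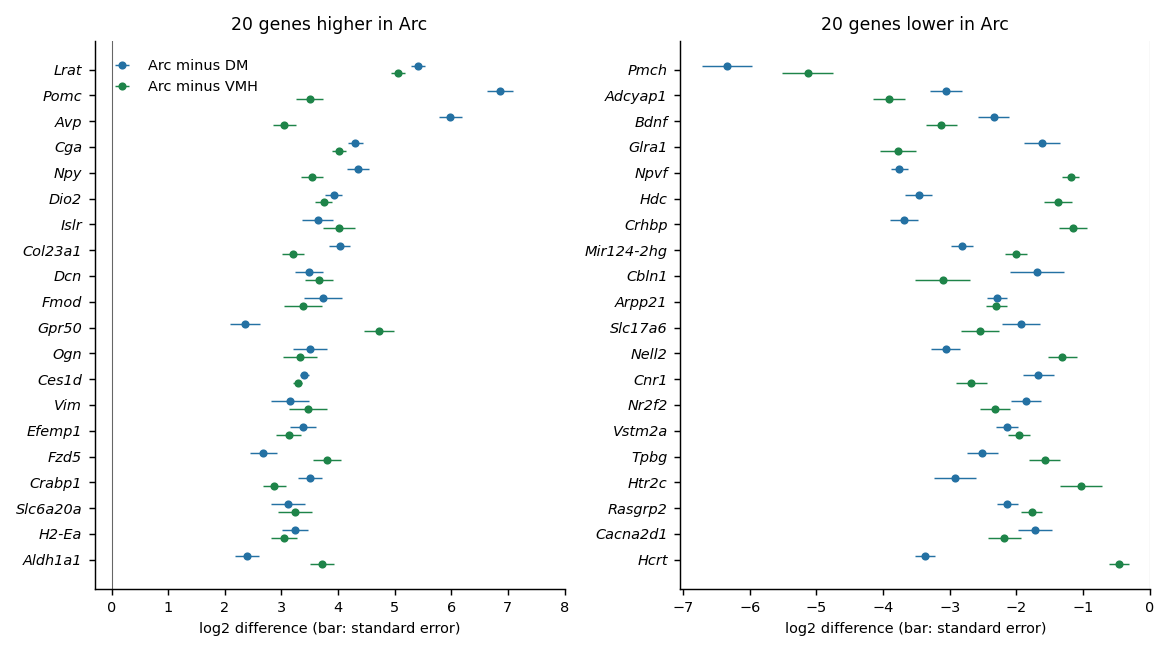
Log2 differences of the 20 genes highest (left) and 20 lowest (right) in Arc, against DM (blue) and against VMH (green), with bars of 1 standard error. Gpr50 was further above VMH than above DM, while for Npvf, Crhbp, Hdc, Nell2 and Hcrt the gap to DM was wider than that to VMH.

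Pmch, the precursor of melanin-concentrating hormone, which promotes feeding, showed the largest difference downwards. It gave 7.82 and 7.43 in Arc, 13.92 and 14.02 in DM and 12.96 and 12.56 in VMH. Both nuclei lay far above Arc. Arc minus DM was -6.34 ± 0.38 and Arc minus VMH -5.13 ± 0.38, and the difference of Pmch from their mean was -5.74 ± 0.33 (53.4-fold; adjusted p = 5.87e-21, limma). Adcyap1, the precursor of the peptide PACAP and a gene of ventromedial neurons, gave 5.38 and 5.53 in Arc, 8.58 and 8.45 in DM and 9.23 and 9.52 in VMH. Here VMH was the highest, and Arc minus the mean was -3.48 ± 0.21 (adjusted p = 3.27e-20).

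Several of the other lower genes were further below DM than below VMH. Npvf, the precursor of RFamide-related peptides, gave 6.77 and 6.76 in Arc, 10.53 and 10.51 in DM and 8.12 and 7.78 in VMH. Hdc, histidine decarboxylase, which makes histamine, gave 6.26 and 5.89 in Arc, 9.77 and 9.32 in DM and 7.01 and 7.89 in VMH. Crhbp, which binds corticotropin-releasing hormone, gave 5.50 and 5.37 in Arc, 9.48 and 8.76 in DM and 6.27 and 6.89 in VMH. Of the 48 regions DM was the highest for Npvf, while the highest was the region labelled M for Hdc (9.57, against 9.54 in DM) and CA1 for Crhbp (9.20, against 9.12). In these 3 genes the arrays of VMH lay between, and all 3 lost the call when DM and VMH were taken as 1 group.

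Among the other lower genes the gaps to DM and VMH were alike for some and unequal for others. Arpp21, a phosphoprotein of neurons that respond to dopamine, differed by -2.29 from DM and -2.30 from VMH. Vstm2a differed by -2.14 and -1.96, Rasgrp2, an exchange factor of Rap1, by -2.13 and -1.77, and Nr2f2, the nuclear receptor COUP-TFII, by -1.86 and -2.32. Cnr1, the cannabinoid receptor of neurons, gave 8.19 and 8.93 in Arc, 10.35 and 10.10 in DM and 11.31 and 11.15 in VMH. Glra1, a glycine receptor subunit, was highest in VMH (9.46 and 9.68), lower in DM (7.66 and 7.15) and lowest in Arc (5.73 and 5.86). Cbln1, a cerebellin that organises synapses, differed by -1.69 from DM and -3.11 from VMH, and Cacna2d1, a calcium channel subunit, by -1.72 and -2.18. Nell2 differed by -3.06 from DM and -1.31 from VMH, and Tpbg by -2.51 and -1.57. Glra1 and Nell2 lost the call with DM and VMH as 1 group. Mir124-2hg, the host transcript of a neuronal microRNA, differed by -2.41 ± 0.14. Bdnf, a neurotrophin that restrains feeding from the ventromedial nucleus, differed by -2.73 on 1 probe set and by -0.48 on the other, and the latter was not called without the second Arc array (-0.32; adjusted p = 0.183, limma).

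Peptide precursors varied in either direction. Of 34 measured, 12 were higher in Arc and 8 lower, against 13.3% and 10.9% of all genes, and the list's median difference was 0.04. Taking DM and VMH as 1 group left 6 higher and 3 lower, and the call was lost by Pomc on the probe set used for the list, Cck, Tac2, Sst, Pnoc, Nucb2, Grp, Trh, Crh, Hcrt and Npvf. For 7 peptides of the list (Agrp, Kiss1, Nms, Gnrh1, Qrfp, Npw and Rln3) no probe set with a gene name was at hand, and they were not analysed here.

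Among peptides that raise or restrain feeding, Npy gave 13.41 and 13.47 in Arc, 9.21 and 8.97 in DM and 10.04 and 9.75 in VMH. Arc arrays above all others were a condition for Npy as 1 of the 20 genes above. Its difference from the mean of DM and VMH was 3.95 ± 0.17 (15.4-fold; adjusted p = 9.91e-27, limma). Cartpt, the precursor of CART, a peptide that restrains feeding, gave 12.47 and 12.72 in Arc, 11.65 and 11.54 in DM and 11.13 and 11.18 in VMH. Arc was the highest region of 48 for Cartpt, but the difference was no more than 1.22 ± 0.18 (adjusted p = 2.10e-07, limma). Nucb2, the precursor of nesfatin, was higher by 0.47 ± 0.12, and without the second Arc array this was not called (0.29; adjusted p = 0.252).

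Peptides that act on the pituitary or are released in the median eminence followed. Ghrh, growth hormone-releasing hormone, gave 9.58 and 9.99 in Arc, 7.50 and 7.27 in DM and 8.44 and 8.12 in VMH, a difference of 1.95 ± 0.11 (adjusted p = 1.16e-20, limma). Sst, somatostatin, which restrains growth hormone, gave 12.58 and 12.77 in Arc, 11.03 and 10.76 in DM and 11.63 and 11.86 in VMH. Both hormones of this antagonistic pair were thus highest in Arc among the 3 nuclei, with VMH next and DM lowest. Tac2, the precursor of neurokinin B, gave 10.63 and 10.53 in Arc, 9.68 and 9.66 in DM and 8.23 and 8.26 in VMH. In Tac2 the order of DM and VMH was turned, and the difference was 0.91 against DM (adjusted p = 0.00419) and 2.33 against VMH (adjusted p = 9.71e-11).

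The hormones of the posterior pituitary were high in Arc. Avp, vasopressin, gave 12.81 and 13.32 in Arc, 7.12 and 7.05 in DM and 9.83 and 10.20 in VMH, a difference of 4.52 ± 0.18 (adjusted p = 4.63e-28, limma). Oxt, oxytocin, gave 12.96 and 13.12 in Arc, 10.13 and 10.05 in DM and 11.37 and 10.75 in VMH, a difference of 2.46 ± 0.16. Arc ranked 3rd of 48 regions for Avp and 4th for Oxt, behind the supraoptic (14.38 and 14.12) and paraventricular nuclei (13.99 and 14.56), where these neurons lie, and for Oxt also behind the medial preoptic area. The median eminence, through which their axons pass, gave 11.27 for Avp and 11.68 for Oxt, below Arc.

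Of the remaining higher peptides, Cck, cholecystokinin, separated VMH from the others, with 9.75 and 9.35 in Arc, 9.26 and 9.08 in DM and 6.38 and 6.73 in VMH. Its difference passed against VMH (adjusted p = 2.57e-11, limma) and not against DM (0.38; adjusted p = 0.430). Nmb, neuromedin B, was higher by 0.92 ± 0.17, with 8.34 and 8.49 in Arc against 7.32 to 7.67 in the other arrays. Pnoc, the precursor of nociceptin, was higher by 0.51 ± 0.13, and without the second Arc array this was not called (0.31; adjusted p = 0.252).

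Most of the lower peptides were higher in DM than in VMH. Hcrt, orexin, which promotes wakefulness and feeding, gave 7.57 and 7.89 in Arc, 11.16 and 11.04 in DM and 8.07 and 8.32 in VMH. Trh, thyrotropin-releasing hormone, gave 7.92 and 7.61 in Arc, 10.34 and 9.92 in DM and 7.88 and 8.22 in VMH. Both were set apart by DM, since Arc minus VMH was -0.46 for Hcrt (adjusted p = 0.0209, limma) and -0.28 for Trh (adjusted p = 0.239). Grp, gastrin-releasing peptide, and Crh, corticotropin-releasing hormone, likewise differed from DM (-2.50 and -2.80), whereas the differences from VMH were 0.22 (adjusted p = 0.594) and -0.08 (adjusted p = 0.914). Tac1, the precursor of substance P, had a mean of 10.18 ± 0.25 (SD, n = 2) in Arc and was higher in both nuclei, with 11.57 and 11.85 in DM and 11.68 and 12.53 in VMH. Its difference was -1.73 ± 0.28 (adjusted p = 3.20e-06), and of its 2 probe sets 1 passed the test.

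Gal, galanin, separated all 3 nuclei. It gave 10.39 and 10.37 in Arc, 11.33 and 11.04 in DM and 9.26 and 9.02 in VMH, so that Arc lay between, with a difference of -0.80 from DM (adjusted p = 1.50e-05, limma) and 1.24 from VMH (adjusted p = 9.61e-10). Against their mean it did not pass (0.22; adjusted p = 0.243). Penk, proenkephalin, differed from DM by -0.90 (adjusted p = 0.00931) and from VMH by -0.05 (adjusted p = 0.936). The other peptides without a call against the mean were Pdyn, Prok2, Npff, Vip, Cort, Ucn, Sct, Gast, Npb, Nmu, Ucn3 and Nts, with differences from -0.54 (Nts) to 0.19 (Pdyn).

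**Figure D3:**
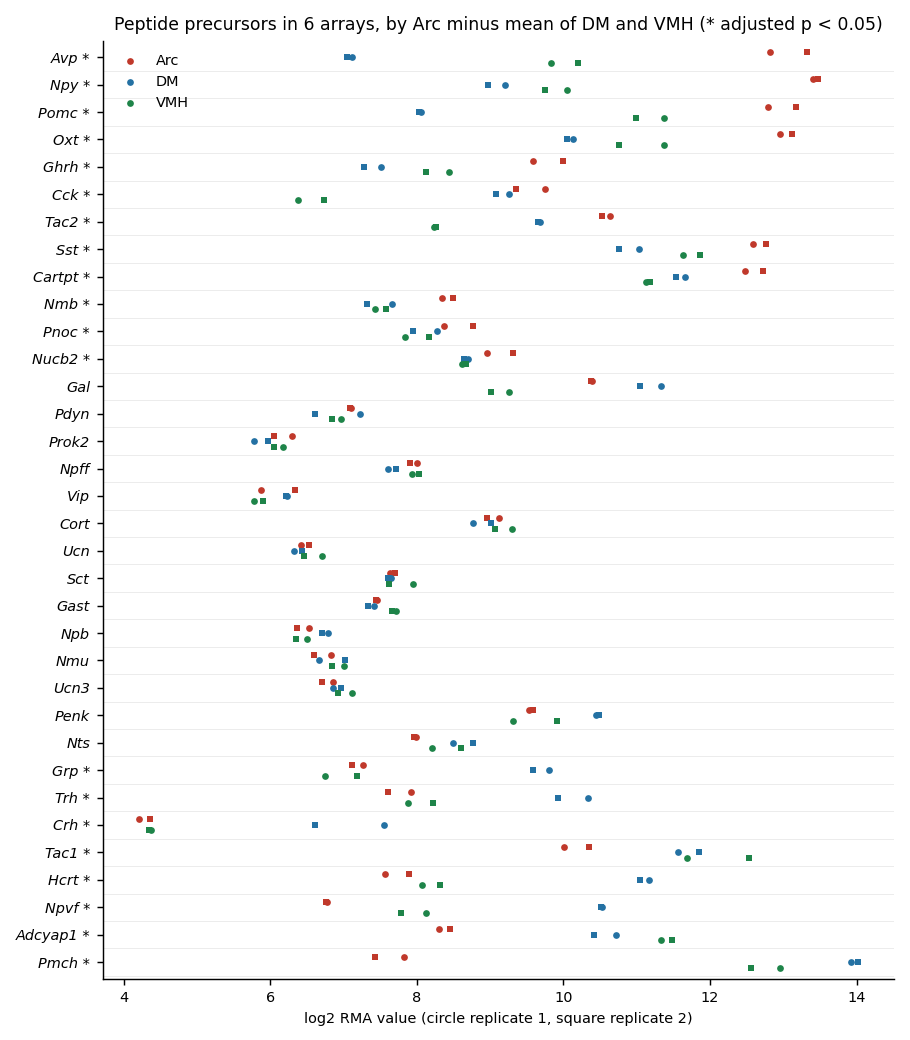
Log2 RMA values (x axis) of 34 peptide precursors (y axis) in the 6 arrays, red for Arc, blue for DM and green for VMH, with circles for replicate 1 and squares for replicate 2, ordered by Arc minus the mean of DM and VMH. From Avp to Nucb2 the red points stand to the right, and at the bottom Pmch falls from 13.92 and 14.02 in DM to 7.82 and 7.43 in Arc.

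Receptors for feeding, growth and reproductive signals were measured for 47 genes, of which 12 were higher in Arc and 6 lower, with a median difference of 0.01. Over all genes 13.3% were higher and 10.9% lower, so that the share of lower receptors was near that of all genes. With DM and VMH as 1 group 6 were higher and 1 lower, and with the mean over all probe sets of a gene 13 were lower. Npy2r, the presynaptic receptor of neuropeptide Y, gave 8.81 and 9.14 in Arc, 6.64 and 6.11 in DM and 6.31 and 6.39 in VMH, a difference of 2.61 ± 0.24 (adjusted p = 4.31e-13, limma). Esr1, estrogen receptor alpha, gave 10.39 in both Arc arrays, 7.99 and 7.80 in DM and 8.04 and 7.76 in VMH. The Arc arrays exceeded the others in both genes, and the other 2 probe sets of Esr1 were also higher, by 0.37 and 1.40, so that the size of its difference depends on the probe set. Ghr, the growth hormone receptor, Npy1r, another receptor of neuropeptide Y, and Ghsr, the ghrelin receptor, were higher by 1.73, 1.72 and 1.31. Lepr, the leptin receptor, gave 8.50 and 8.26 in Arc, 8.03 and 8.20 in DM and 8.31 and 8.16 in VMH, and did not pass (0.21; adjusted p = 0.130), although 1 of its 4 probe sets did (0.41).

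Lower in Arc were Htr2c, a serotonin receptor through which feeding is restrained, Qrfpr, the receptor of the peptide 26RFa, Trhr, a receptor of thyrotropin-releasing hormone, and Cckbr, a cholecystokinin receptor. Htr2c gave 8.22 and 8.44 in Arc, 11.30 and 11.20 in DM and 8.99 and 9.73 in VMH. All 4 lost the call with DM and VMH as 1 group. Trhr and Cckbr differed by -1.28 and -0.82, the former more from DM (-1.68) and the latter more from VMH (-1.36).

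Of 20 genes that carry the leptin and insulin signal inside the cell, 9 were higher in Arc and 3 lower, with a median difference of 0.18. Over all genes 13.3% were higher and 10.9% lower, so that the share of lower ones was near that of all genes. Of the 20, 4 were higher and 0 lower with DM and VMH as 1 group. Without the first Arc array or the second DM array 1 was lower. Irs4, an insulin receptor substrate, gave 13.19 and 13.20 in Arc, 12.02 and 11.93 in DM and 11.41 and 11.79 in VMH, a difference of 1.41 ± 0.24 (adjusted p = 5.71e-06, limma). Foxo1, a transcription factor restrained by insulin, gave 9.83 and 10.04 in Arc against 8.60 to 8.83 in the other arrays. Stat5a was higher by 0.70. Stat3, which carries the leptin signal, was higher by 0.60, but not without the first Arc array (0.55; adjusted p = 0.104) nor without the second DM array (0.50; adjusted p = 0.0560).

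Of 21 genes of retinoid and thyroid hormone handling, 11 were higher in Arc and 2 lower, with a median difference of 0.38. Over all genes 13.3% were higher and 10.9% lower, so that the share of lower ones was near that of all genes. The lower ones were Thra and Rxra, nuclear receptors of thyroid hormone and of 9-cis retinoic acid. Neither was called with DM and VMH as 1 group. Of these 21 genes 3 (Dio2, Crym and Slco1c1) are also in the list of tanycytes, 1 (Aldh1a2) in that of leptomeninges, 1 (Ttr) in that of choroid plexus and 1 (Rarres2) in that of ependymal cells. The median differences of the tanycyte and leptomeningeal lists were 1.40 and 1.63, and 14 of the 21 genes were higher in the median eminence than in Arc. The part of these cells in the result was not tested. Crabp1, which binds retinoic acid in the cell, gave 8.80 and 8.71 in Arc, 5.28 and 5.23 in DM and 5.96 and 5.81 in VMH, and Arc was its highest region of 48. Aldh1a1 and Aldh1a2, which make retinoic acid, gave 10.04 and 10.38 and 8.74 and 8.65 in Arc, where the other 4 arrays gave 6.47 to 7.87 and 6.50 to 6.96. For Crabp1 and Aldh1a1, which are among the 20 genes above, Arc arrays above the other 4 were a condition of entry. The Arc arrays also stood above the other 4 for Aldh1a2, and for each of these genes the call held against DM and VMH alone. Thra differed by -0.59 ± 0.08 (adjusted p = 1.69e-08, limma). Rxra differed by -0.25 and was not called without either Arc array (-0.23 and -0.28; adjusted p = 0.213 and 0.129), without the second DM array (-0.24; adjusted p = 0.0964) or without either VMH array (-0.25 and -0.26; adjusted p = 0.0832 and 0.0594).

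Transcription factors known from the tuberal hypothalamus set the nuclei apart. Of 45 measured, 9 were higher in Arc and 14 lower, with a median difference of -0.05, against 13.3% and 10.9% of all genes. With DM and VMH as 1 group 5 were higher and 3 lower, and Six3, Otp, Fezf1 and Ebf3 were not called. Tbx3, which keeps the identity of peptide neurons in the arcuate nucleus, gave 10.32 and 10.27 in Arc, 6.84 and 6.99 in DM and 7.79 and 7.69 in VMH, a difference of 2.97 ± 0.16 (adjusted p = 8.12e-22, limma). Six6 and Six3, homeobox genes of the ventral forebrain, were higher by 2.23 and 1.56, and Otp, a homeobox gene of neuroendocrine neurons, by 1.56. In Six6 and Six3 VMH lay nearer to Arc than DM did, and in Otp DM lay nearer.

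The lower transcription factors were of different kinds. Fezf1, a zinc finger gene of the ventromedial nucleus, gave 5.53 and 5.89 in Arc, 5.33 and 5.39 in DM and 9.68 and 9.30 in VMH. Ebf3 gave 6.00 and 6.03 in Arc, 9.25 in both DM arrays and 5.76 and 6.23 in VMH. Each thus marked 1 neighbour, with a difference from the other nucleus that did not pass (Fezf1 minus DM 0.35, adjusted p = 0.0883, limma; Ebf3 minus VMH 0.02, adjusted p = 0.963). Nkx2-2 and Nr2f1, in contrast, were lower in Arc than in both, with differences of -1.66 and -1.59 from DM and -1.50 and -0.96 from VMH.

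Of 13 genes known to mark the ventromedial nucleus, 11 were lower in Arc, against 10.9% of all genes, with a median of -1.34. Among the 13, Qrfpr is also a marker that the study chose on these arrays, so that its direction is no independent evidence. The list's median difference was -1.50 against VMH and -0.34 against DM. Nr5a1 gave 6.87 and 6.65 in Arc, 6.44 and 6.57 in DM and 8.48 and 8.50 in VMH, a difference of -1.73 from VMH (adjusted p = 1.06e-16, limma) and of 0.26 from DM (adjusted p = 0.139), and its second probe set did not pass. Qrfpr and Gpr149, an orphan receptor, gave like pictures, with -3.46 and -2.90 against VMH and 0.10 and -0.34 against DM. Slc17a6, Nptx2 and Nkx2-2 were lower than in both nuclei, with differences of -2.10, -1.21 and -1.66 from DM and -1.94, -1.46 and -1.50 from VMH. Vgll2 differed by -0.41 and Gda, guanine deaminase, by -0.51. Gda was not called without the first Arc array (-0.35; adjusted p = 0.333), the first DM array (-0.47; adjusted p = 0.0671) or the first VMH array (-0.44; adjusted p = 0.0912). Nr0b1, or DAX1, a partner of steroidogenic factor 1, differed by 1.05 from DM and by -0.82 from VMH, and Sox14 by -0.50 from VMH. With DM and VMH as 1 group 4 of the 13 were lower, and Nr5a1, Fezf1, Qrfpr and Gpr149 were among those not called.

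Of 10 markers of the dorsomedial nucleus and the lateral hypothalamus beside it, 7 were lower and 1 (Cck) higher. Over all genes 10.9% were lower and 13.3% higher. Of the list, Hcrt, Npvf and Peg10 are also markers that the study chose on these arrays, so that their direction is no independent evidence. The list had medians of -2.21 against DM and -0.15 against VMH, and with DM and VMH as 1 group 1 was lower and 0 higher. The study itself chose 9 genes on these arrays as markers of the 3 nuclei, and these are no independent evidence of direction. Of the 9, Pomc, Crabp1 and Ghrh were higher in Arc and Npvf, Hcrt, Qrfpr and Peg10 lower. With DM and VMH as 1 group 0 of the lower ones were called. Pomc lost its call there on the probe set used for the lists, while Crabp1 and Ghrh kept theirs. Peg10 was set apart by DM (8.05 and 8.15, against 6.19 and 6.41 in Arc and 5.75 and 5.88 in VMH), and without the first Arc array the difference from the mean was not called (-0.55; adjusted p = 0.0860, limma). Slc25a30 differed from VMH by -0.83 (adjusted p = 0.000746), and Cgn did not pass in any of the 3 comparisons.

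**Figure D4:**
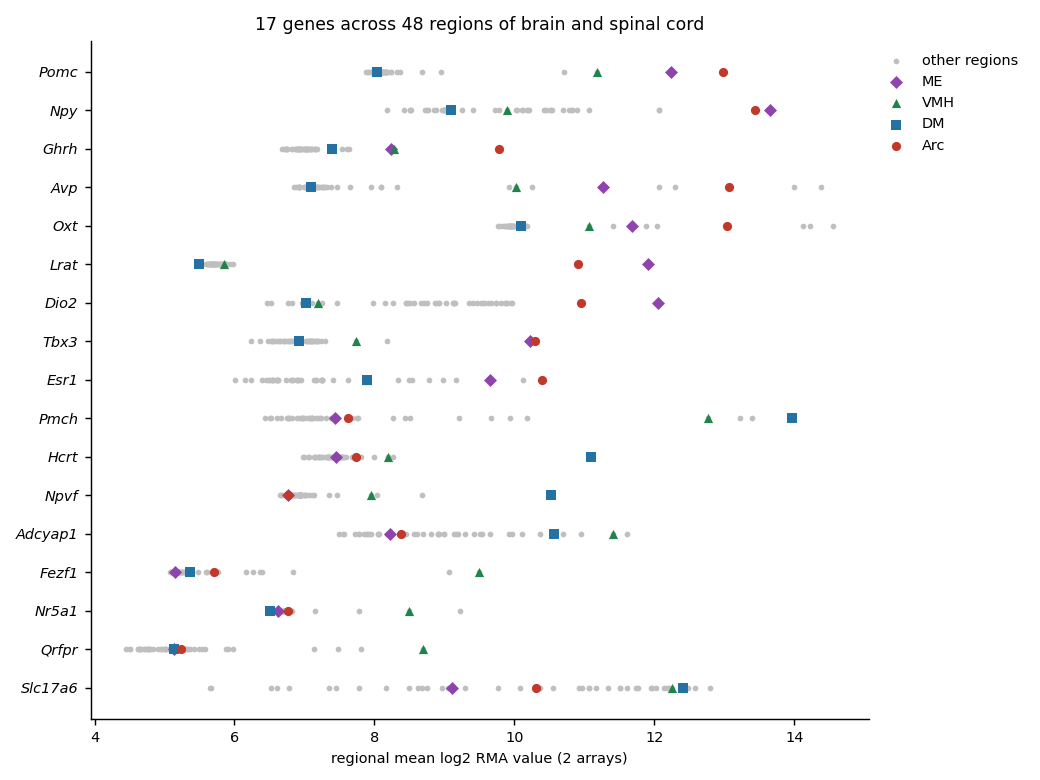
Regional mean log2 RMA values (x axis) of 17 genes (y axis) in 48 parts of the central nervous system, in grey, with Arc as red circles, DM as blue squares, VMH as green triangles and the median eminence (ME) as purple diamonds. Lrat stands out in Arc and ME alone, while Pmch is at 13.97 in DM, 12.76 in VMH and 7.62 in Arc.

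Dopamine neurons of the arcuate nucleus restrain prolactin release. Of 14 genes of dopamine synthesis, transport and dopamine neurons, 5 were higher in Arc and 4 lower, with a median of -0.02. Over all genes 13.3% were higher and 10.9% lower. Without the second Arc array 3 of the 14 were higher and 2 lower. With DM and VMH as 1 group 3 were higher and 0 lower, and Th and Pts were not called. Th, the rate-limiting enzyme of synthesis, gave 9.89 and 9.82 in Arc, 9.51 and 8.98 in DM and 8.28 and 8.63 in VMH, and Slc6a3, the dopamine transporter, gave 7.53 and 7.82 in Arc against 6.53 to 6.98 in the others. Each was higher by 1.00 (adjusted p = 1.11e-05 and 3.35e-10, limma), and Arc ranked 5th and 3rd of 48 regions. Aldh1a1, also a gene of dopamine neurons, was described above. Gch1 and Pts, enzymes of the cofactor tetrahydrobiopterin, were higher by 0.61 and 0.33. Gch1 was not called without the first (0.65; adjusted p = 0.0952) or second Arc array (0.58; adjusted p = 0.151), nor Pts without the second (0.27; adjusted p = 0.191).

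Ddc, which completes the synthesis of dopamine, Slc18a2, the vesicular transporter of amines, Spr, Pitx3 and Foxa2 did not pass, with differences of -0.26, -0.39, 0.09, 0.01 and -0.05. Slc18a2 differed from DM by -1.27 (adjusted p = 0.00735, limma). Foxa1 and Nr4a2, transcription factors of midbrain dopamine neurons, Drd2, a dopamine receptor, and Ret, a receptor of neurotrophic factors, were lower, with differences of -1.15, -0.71, -0.52 and -0.45, in each case with DM as the highest of the 3 nuclei. Drd2 was not called without the second Arc (-0.39; adjusted p = 0.287), second DM (-0.51; adjusted p = 0.0503) or first VMH array (-0.49; adjusted p = 0.0616). Ret was not called without the first or second Arc (-0.49 and -0.40; adjusted p = 0.0811 and 0.188), first DM (-0.43; adjusted p = 0.0555) or second VMH array (-0.43; adjusted p = 0.0538).

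For the fast transmitters, Slc17a6, the vesicular glutamate transporter VGLUT2, was low in Arc, with 10.29 and 10.33 against 12.39 and 12.41 in DM and 12.22 and 12.27 in VMH, a difference of -2.02 ± 0.22 (adjusted p = 1.24e-10, limma). Of 8 genes of GABA synthesis and transport, 3 were higher in Arc and 1 lower, against 13.3% and 10.9% of all genes. Leaving out either Arc array left 1 higher, and taking DM and VMH as 1 group left 0. The list had medians of -0.31 against DM and 0.98 against VMH. Gad2, which makes GABA, gave 11.13 and 11.35 in Arc, 11.36 and 11.20 in DM and 9.79 and 9.93 in VMH, so that Arc and DM overlapped and VMH was low. Its difference from the mean was 0.67 and was not called without the second Arc array (0.56; adjusted p = 0.157). Slc6a11, the GABA transporter GAT3 of astrocytes, was lower, with a difference of -1.03.

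Among cells other than neurons, markers of tanycytes, leptomeninges, microglia and ependymal cells were mostly higher in Arc. The lists of these cells stand beside shares over all genes of 13.3% higher and 10.9% lower. The list of 17 genes of tanycytes, the radial glia that line the floor of the third ventricle, had 14 higher, with a median of 1.40. The mean level of the list was 9.30 and 9.31 in the Arc arrays and 7.73 to 7.82 in the other 4. Besides Dio2, Scn7a, a sodium channel of glia, gave 10.12 and 9.90 in Arc against 6.70 to 7.33, Fndc3c1 gave 8.42 and 8.51 against 5.36 to 5.54, and Frzb, an inhibitor of Wnt signals, 9.93 and 9.97 against 6.97 to 7.12. In 15 of the 17 genes the mean was higher in the median eminence than in Arc. Tanycytes are native to both tissues.

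Leptomeninges, the membranes at the surface of the brain, gave 13 of 14 genes higher, with a median of 1.63. Their mean level was 9.19 and 8.92 in Arc and 7.14 to 7.41 in the others. Dcn gave 12.00 and 11.79 in Arc against 8.07 to 8.45, and Lum, lumican, 8.63 and 8.25 against 5.71 to 6.01. Of the 2 probe sets of Dcn 1 was called. All 14 were higher in the median eminence than in Arc. Col1a1 did not pass (0.23). Microglia gave 8 of 11 higher, with a median of 0.85 and mean levels of 9.40 and 9.45 against 8.57 to 8.80. C1qb, C1qc and C1qa, the chains of complement C1q, were higher by 1.38, 1.14 and 1.07, while the microglial genes P2ry12, Tmem119 and Cx3cr1 differed by 0.17, 0.02 and 0.26 and did not pass. Ependymal genes were higher for 7 of 12 (4 with DM and VMH as 1 group), led by Mia (2.43).

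Genes of the anterior pituitary were higher for 3 of 11 (Cga, Tshb and Pitx1), against 13.3% of all genes. Tshb, the beta subunit of thyrotropin, gave 9.82 and 9.41 in Arc, 6.85 and 7.10 in DM and 7.30 and 7.07 in VMH, a difference of 2.54 ± 0.10 (adjusted p = 1.11e-28, limma). The hormone genes Prl, Gh, Lhb and Fshb, all at 12.38 or more in the pituitary gland, gave 6.34 and 6.17, 7.39 and 7.43, 7.57 in both arrays, and 5.38 and 5.13 in Arc, with differences of -0.06, -0.16, -0.03 and 0.15 that did not pass. Prl and Gh, the most abundant transcripts of that gland, were near the levels of DM and VMH, whereas Cga and Tshb were above them. The source of Cga and Tshb in the Arc arrays was not tested.

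Genes of neurons in general were lower in Arc for 9 of 13, against 10.9% of all genes. Their median difference was -0.70, and their mean levels were 10.90 and 11.03 against 11.49 to 11.81. Nefl and Nefm, neurofilament chains, differed by -1.54 and -1.44, Syn1, a protein of synaptic vesicles, by -0.99 and Eno2, neuron-specific enolase, by -0.87. Elavl4 and Uchl1 did not pass (-0.06 and -0.15). With DM and VMH as 1 group 5 of the 13 were lower. The part of these lists in the differences of the peptides and receptors was not tested.

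The lists of other cells moved less, where 13.3% of all genes were higher in Arc and 10.9% lower. Of 14 astrocyte genes 3 were higher and 4 lower, and of the latter 1 was called without the first Arc array and 2 without the first DM array. With DM and VMH as 1 group 1 was higher and 0 lower, and Gfap was not called. Gfap gave 10.31 and 10.59 in Arc, 9.96 and 9.49 in DM and 8.87 and 9.08 in VMH. Of 16 oligodendrocyte genes 1 was higher (Apod, 1.97) and of 12 endothelial genes 1 (Kdr, 0.45, not called with DM and VMH as 1 group). Of 11 choroid plexus genes 3 were higher, led by Kcnj13 (1.23).

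**Figure D5:**
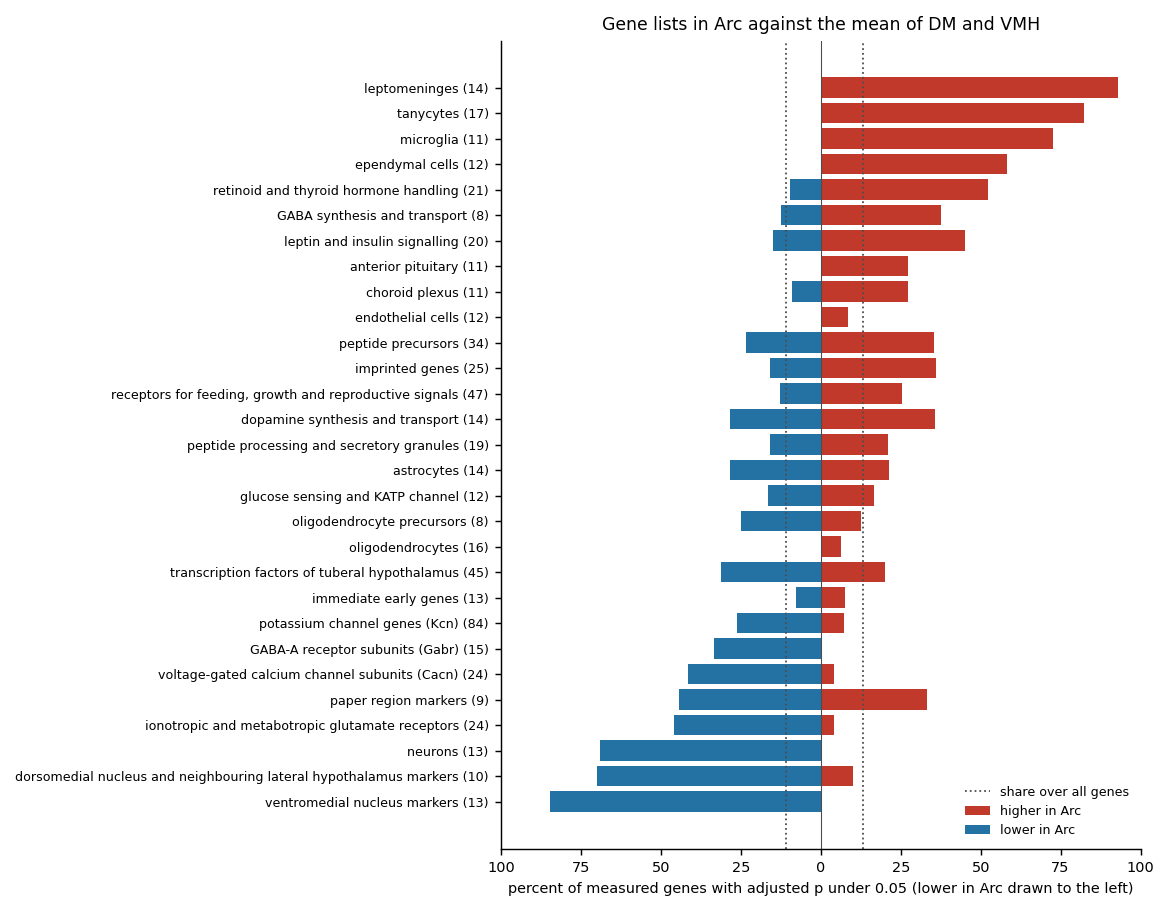
Share of the measured genes of each list of 8 or more (number in brackets) that were higher (red, to the right) or lower (blue, to the left) in Arc than the mean of DM and VMH at adjusted p under 0.05, ordered by the list's median difference, with dotted lines at the shares over all genes (13.3% higher, 10.9% lower). Leptomeninges, tanycytes and microglia lie at the top, and neurons and markers of the DM and VMH at the bottom.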

How the data were processed

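The authors hybridised labelled RNA to Affymetrix Mouse Genome 430 2.0 arrays and summarised the probes by RMA, and the deposited values are log2 RMA values of 102 arrays. The version of RMA and the settings of the background step are not given in the sources used here, and arrays carry no counts, so that the number of arrays limits the precision. In the 6 arrays the replicates correlated at 0.994 (Arc), 0.995 (DM) and 0.994 (VMH) over all probe sets. The 64 control probe sets were left out. Of 45037 probe sets, 34945 named 1 gene in the platform's annotation, 932 several and 9160 none, and 34741 matched a RefSeq gene ID with no change of symbol. Probe sets ending in _x_at or _s_at can bind several transcripts.

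limma 3.58.1 (R 4.3.3) was fitted to 96 arrays with 1 coefficient for each of 48 regions (retina, pituitary and pineal left out), which leaves 48 residual degrees of freedom, so that the standard error of Arc, DM and VMH is set mostly by the spread of all regions. Contrasts were Arc minus the mean of DM and VMH, Arc minus DM and Arc minus VMH, each adjusted by Benjamini and Hochberg over all 45037 probe sets. A gene of a list was read by its probe set with the highest mean over the 96 arrays. Named were the 20 genes per direction with the largest difference (adjusted p under 0.05, both Arc arrays beyond the other 4, by the probe set that differed most), all members of 4 lists (peptide precursors, dopamine genes, ventromedial markers and the study's own markers), and up to 4 per direction of the other lists, with members that did not pass where needed. The comparison and the lists were chosen with earlier results of these data known. The fit was tested on simulated data. By the study's sampling record Arc, DM and VMH were taken on different days, so that day and nucleus cannot be told apart. Same-numbered arrays are not paired by the labels. Alternatives were other array sets, normalization, filters, blocks and leaving out each array.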

Additional observations from a re-analysis of the deposited data

How the results depend on the processing

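Of 178 named probe sets called against the mean of DM and VMH, none changed sign under any alternative. Most alternatives leave the difference itself unchanged, so a sign could turn only with normalization, the sampling day block or an array left out. The 178 were also chosen as called in these data, so the absence of sign changes is weak evidence. The call was lost by 10 with the 6 arrays alone, 80 with DM and VMH as 1 group and 2 with cyclic loess normalization. It was lost by 1 with a variance trend, 1 with sampling day as a random block and 5 to 21 when 1 array was left out. With the replicate number as a block over 96 or 6 arrays, 1 and 19 lost it. Counts of probe sets higher and lower were 1121 and 647 with DM and VMH as 1 group of 4, a setting that by construction counts their difference as spread. A least difference of 1 gave 494 and 356, for Arc minus DM 542 and 731, and for Arc minus VMH 585 and 421. The replicate block with 6 arrays gave 2740 and 2781, for Arc minus DM 2711 higher, and for Arc minus VMH 2778 and 2058, and it changed no other count by over 1.5 times. Deviations of same-numbered arrays correlated at -0.47 (Arc and DM), 0.10 (Arc and VMH) and -0.08 (DM and VMH), and the main fit used no pairing. The value for Arc and DM is a shared deviation with the numbers crossed, which the main fit leaves out, and its source was not tested. The 4 arrays of Arc and DM alone, chosen after seeing the data, gave 3048 higher. A crossed block on them, also chosen after seeing the data, gave 6657 higher and 7032 lower. Leaving out 1 array gave 2958 to 4506 higher and 2701 to 4121 lower, for Arc minus DM 3374 to 4942 and 3605 to 5673, and for Arc minus VMH 3047 to 5063 and 2120 to 3653. Named genes far from the threshold turned sign as follows, with no call in either case. Cort went to -0.0082 with cyclic loess. When 1 array was left out, Cort ranged from -0.075 to 0.0831, Foxa2 from -0.175 to 0.0707, Pitx3 from -0.0657 to 0.0871, Sct from -0.123 to 0.0419, Ucn from -0.0684 to 0.0562 and Vip from -0.152 to 0.307. With 2 arrays a nucleus, the precision rests on the spread of all 48 regions, and low differences were not resolved.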

Other observations

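Genes of channels and receptors at the neuronal membrane were lower in Arc more often than higher in the 4 lists measured. Of 24 glutamate receptor genes, 11 were lower and 1 higher than the mean of DM and VMH (median -0.35), and of 15 GABA-A receptor subunits 5 were lower (median -0.25), against 10.9% of all genes lower and 13.3% higher. Grm5, a metabotropic glutamate receptor, gave 8.51 and 9.03 in Arc, 10.40 and 10.29 in DM and 10.47 and 11.18 in VMH (-1.82; adjusted p = 8.03e-12, limma). Gabrb2 gave 9.20 and 9.42 in Arc, 10.79 and 10.82 in DM and 10.89 and 11.32 in VMH, and all 5 of its probe sets were lower. In both genes every Arc array lay below the others. Grik3, a kainate receptor subunit, was higher by 0.95, but not without the second Arc array (0.74; adjusted p = 0.0704). Of 24 calcium channel genes 10 were lower and 1 higher, and 6 lower without the second Arc array. Of 84 potassium channel genes 22 were lower and 6 higher, with Kcns2 (-1.40), Kcna2 (-1.23) and Kcna1 (-1.20) the lowest of the list. With DM and VMH as 1 group 5 glutamate receptor genes, 3 GABA-A receptor subunits, 3 calcium channel genes and 8 potassium channel genes were lower, and 3 potassium channel genes and 0 of the others higher. These lists moved together with the neuronal list, whose part was not tested.

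Of 25 imprinted genes 9 were higher and 4 lower (1 without the first Arc array), against 13.3% and 10.9% of all genes. With DM and VMH as 1 group 4 were higher and 1 lower, and Asb4 was not called. Mest gave 10.22 and 10.23 in Arc against 7.91 to 8.39, and Igf2, a growth factor, was higher by 1.30. Igf2 is also in the list of leptomeninges, of which 13 of 14 genes were higher in Arc (median 1.63), and their part in its difference was not tested. Asb4, an arcuate gene of energy balance, gave 10.41 and 10.58 in Arc, 10.18 and 10.01 in DM and 7.72 and 7.68 in VMH, so that VMH stood apart and Arc minus DM did not pass (0.40; adjusted p = 0.439, limma). Of 19 genes of peptide processing and secretory granules 4 were higher and 3 lower, against 13.3% and 10.9% of all genes, which for the lower ones is near the share of all genes. Without the second Arc array 2 were higher, without the first 1 was lower, and with DM and VMH as 1 group 1 was higher and 0 lower. Chga, chromogranin A, was higher by 1.02.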
